A study of Arabidopsis thaliana with 4 samples.

Results

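The genes psbE, psbF, psbL, psbJ, cemA and petA lie side by side in the chloroplast genome of Arabidopsis thaliana and code for subunits of the photosynthetic electron transport chain and a protein of the chloroplast envelope. They were taken as the probe sets whose platform annotation gives a single gene with one of these 6 symbols. Each gene had 1 such probe set, so the set held 6 of the 13350 genes with a probe set of their own among 22746 probe sets. The probe sets were 244964_at for psbE, 244963_at for psbF, 245022_at for psbL, 245021_at for psbJ, 245019_at for cemA and 245020_at for petA.

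Total RNA was profiled on 4 arrays, 2 titled albino and 2 titled control, each with a replicate 1 and a replicate 2. Albino plants and control plants of normal appearance both segregated from a parental line of the strong albino mutant DS 13-2198-1, and were grown together on a plate of diluted Murashige and Skoog (MS) salts to which 2% sucrose was added. Plants of both groups were 3 weeks old and were kept at 23 °C with 16 h of light and 8 h of dark. The labels name no disrupted gene and do not say whether plants were pooled or whether the replicates came from separate plants, and the free-text description of all 4 samples reads wild type, so groups follow the titles. The error behind every p-value is thus the variation among 4 arrays, part of which may be technical.

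The products of psbE and psbF are the alpha and beta subunits of cytochrome b559, which hold a heme between them in the core of photosystem II, the complex that splits water. PsbL and PsbJ are small membrane subunits of the same complex, and the genes for all these subunits are transcribed together, in the order psbE, psbF, psbL, psbJ. The product of petA is cytochrome f, the c-type cytochrome of the cytochrome b6f complex, which passes electrons from plastoquinol to plastocyanin. The cemA gene lies just upstream of petA and codes for a protein of the inner chloroplast envelope, which in the green alga Chlamydomonas has been linked to the uptake of inorganic carbon. The psbE cluster is read from the strand opposite to cemA and petA. Photosynthesis genes of the plastid are transcribed mainly by the plastid's own polymerase.

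All 6 genes had higher values in the albino array than in the control array of the same replicate number, by much more in replicate 1 than in replicate 2. In replicate 1 the albino minus control differences ran from 0.76 for petA to 1.74 for psbL on the log2 scale, and 4 of the 6 were at least 2-fold. In replicate 2 they ran from 0.03 for psbF to 0.51 for cemA, and 0 of 6 reached 2-fold. With limma fitted over all probe sets, none of the 6 passed the test (adjusted p between 0.797 and 1), and cemA was the 1 gene with an unadjusted p under 0.05. Over all probe sets limma called 0% at an adjusted p under 0.05, and 2.68% were higher in albino at an unadjusted p under 0.05.

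Of all probe sets 34.6% were higher in albino in both replicate numbers, against 6 of the 6 genes. At least 2-fold higher were 3.47% of all probe sets in replicate 1 and 1.06% in replicate 2. Of the 63 other measured plastid genes 26 were at least 2-fold higher in replicate 1 and 8 in replicate 2. The median difference of the 6 genes was 1.13 in replicate 1 and 0.21 in replicate 2, beside 0.01 and 0.03 over all probe sets. The replicate 2 difference of psbF, 0.026, lay below that median over all probe sets, 0.034. Over all 4 arrays the median of the 6 was 0.70, beside 0.02 over all probe sets. It was 0.09 without albino replicate 1 and 1.17 without albino replicate 2. The members share their arrays and neighbouring transcripts, so they are not replicates of each other. The labels give only frozen tissue of plants as the source of RNA. A different organ or cell make-up of a sample and more of a transcript per cell cannot be told apart. The priming of the cDNA was not given, and how far the values follow the amount of a plastid transcript was not tested.

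**Figure D1:**
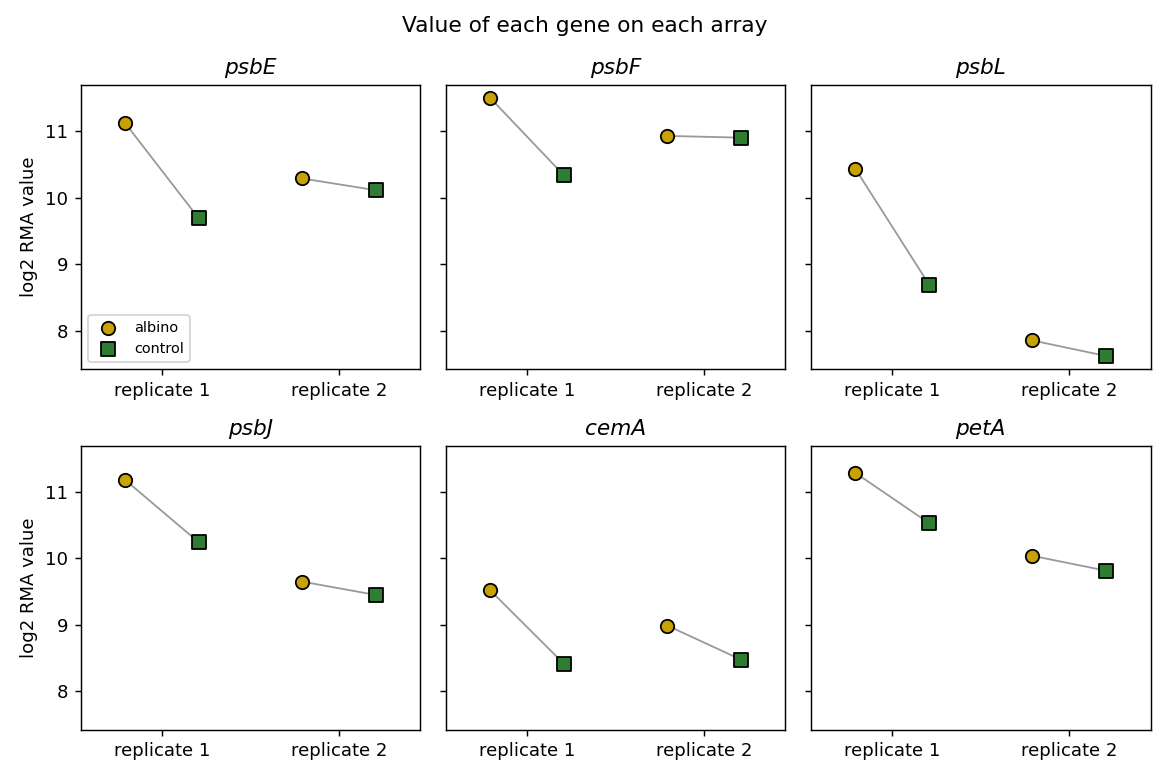
Log2 RMA value of each of the 6 genes (panels) on each of the 4 arrays, with albino arrays as circles and control arrays as squares, and a line joining the arrays of a replicate number. Every line falls from albino to control, steeply in replicate 1 and by 0.51 or less in replicate 2. Heights are not comparable between panels.

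The cytochrome b559 genes had albino values above both control values, by a narrow margin. For psbE, the alpha subunit, the log2 values were 11.12 and 10.29 in albino replicates 1 and 2, against 9.69 and 10.11 in control replicates 1 and 2. Both albino arrays thus lay above both control arrays, and albino replicate 2 exceeded the higher control by 0.18. The within-replicate differences were 1.43, or 2.70-fold, and 0.18, or 1.13-fold, with a mean difference of 0.81 (SE 0.37, 95% interval -0.12 to 1.73, limma adjusted p = 0.955).

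For psbF, the beta subunit, the values were 11.50 and 10.93 in albino replicates 1 and 2, against 10.33 and 10.90 in control replicates 1 and 2. Here too the groups did not overlap, but albino replicate 2 and control replicate 2 were nearly level. The differences were 1.16, or 2.24-fold, in replicate 1 and 0.03, or 1.02-fold, in replicate 2. Their mean of 0.60 had an SE of 0.34 and a 95% interval of -0.26 to 1.45.

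The genes at the other end of this transcript varied more between arrays of 1 group than between groups. For psbL, which acts near the plastoquinone site of photosystem II, the values were 10.43 and 7.85 in albino replicates 1 and 2, against 8.69 and 7.62 in control replicates 1 and 2. Albino replicate 1 stood far above the other 3 arrays, and albino replicate 2 lay below control replicate 1, so the groups overlapped. Its difference in replicate 1, 1.74 or 3.34-fold, was the largest of the 6 genes, and its difference in replicate 2 was 0.23 or 1.18-fold. The mean of 0.99 had an SE of 0.87 and a 95% interval of -1.16 to 3.14, so neither no difference nor a large one lay outside the interval.

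For psbJ, a subunit needed for efficient electron flow in photosystem II, the values were 11.18 and 9.65 in albino replicates 1 and 2, against 10.24 and 9.45 in control replicates 1 and 2. The order of the arrays was that of psbL, and the groups overlapped. The differences were 0.94, or 1.92-fold, and 0.20, or 1.15-fold, with a mean of 0.57 (SE 0.57). Without albino replicate 1 the fitted differences of psbL and psbJ were -0.30 and -0.20, since the remaining albino array was then set against both controls.

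The envelope protein gene cemA had the highest difference of the 6 in replicate 2. Its values were 9.52 and 8.99 in albino replicates 1 and 2, against 8.42 and 8.48 in control replicates 1 and 2. The control arrays differed by 0.06, the albino arrays were both above them, and the gap between the groups, 0.51, was the widest of the 6 genes. The differences were 1.10, or 2.15-fold, in replicate 1 and 0.51, or 1.43-fold, in replicate 2, with a mean of 0.81 (SE 0.29, 95% interval 0.08 to 1.53, limma unadjusted p = 0.0347, adjusted p = 0.797).

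For petA, which codes for cytochrome f, the values were 11.28 and 10.04 in albino replicates 1 and 2, against 10.53 and 9.81 in control replicates 1 and 2. The arrays of replicate 1 were both above those of replicate 2, and the groups overlapped. The differences were the smallest of the 6 in replicate 1, 0.76 or 1.69-fold, and 0.22 or 1.17-fold in replicate 2. The mean of 0.49 had an SE of 0.49 and a 95% interval of -0.73 to 1.71, and without albino replicate 1 the fitted difference was -0.13.

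Both albino arrays thus lay above both control arrays for 3 of the 6 genes, psbE, psbF and cemA, against 16.2% of all probe sets. Among the 63 other measured plastid genes this held for 24, among them 8 of 11 photosystem II genes and 1 of 5 cytochrome b6f genes. The same 3 genes were apart after quantile normalization or cyclic loess of all 4 arrays together. This count sets arrays of different replicate numbers against each other, so it also holds the gap between replicate numbers. Within replicate numbers psbL, psbJ and petA were higher in albino as well, and their differences in replicate 2 were above the 0.03 of psbF.

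The psbE cluster was uneven in how far the control arrays lay apart. Control replicate 2 was above control replicate 1 by 0.42 for psbE and 0.57 for psbF, and below it by a difference of -1.07 for psbL and -0.79 for psbJ. Genes read into a common transcript thus differed in opposite directions between the control arrays. For petA the control arrays differed by -0.71 in the same sense, and for cemA by 0.06, a sign that turned to -0.16 with either quantile normalization or cyclic loess of all arrays, while the signs of the other 5 held.

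In the albino arrays replicate 2 was below replicate 1 for all 6 genes, against 43.3% of all probe sets. The same held for 54 of the 63 other measured plastid genes, so it was not particular to the 6. These differences ran from -0.53 for cemA to -2.58 for psbL. The deposited values appear to have been normalized as pairs of arrays with a common replicate number, so a gap between replicate numbers holds that step as well. After quantile normalization of all arrays the gaps between the albino arrays were -0.69 for cemA and -2.79 for psbL.

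**Figure D2:**
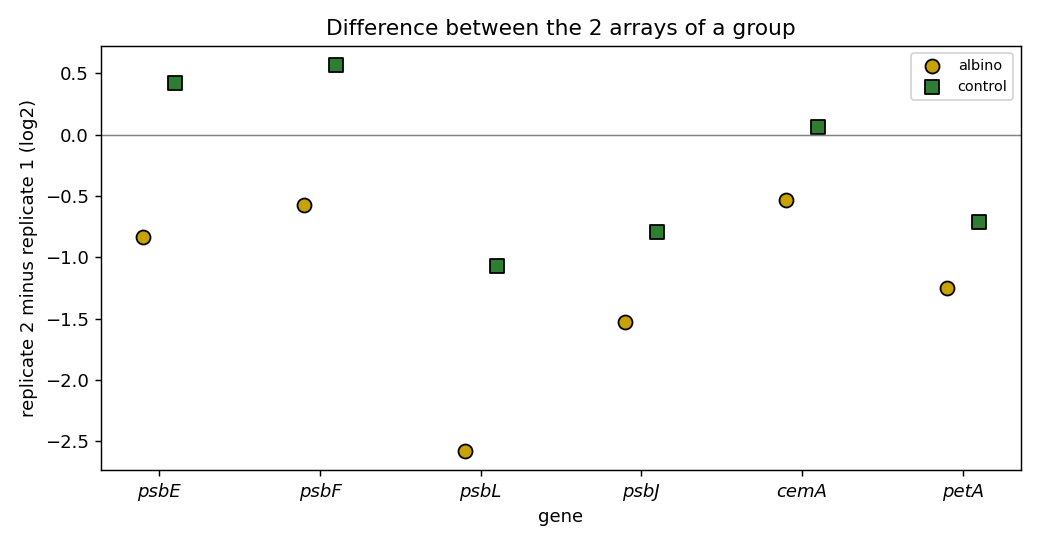
Replicate 2 minus replicate 1 (log2) for the albino arrays (circles) and the control arrays (squares) of each gene. The albino circles lie below 0 for every gene, between -0.53 and -2.58, whereas the control squares of psbE and psbF lie above 0 and those of psbL, psbJ and petA below it.

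The larger difference in replicate 1 was common to the plastid genome as measured here. The albino minus control difference was larger in replicate 1 than in replicate 2 for 6 of the 6 genes. The same held for 58 of the other 63 measured plastid genes, against 48.2% of all probe sets. Over all probe sets the standard deviation of these differences was 0.60 in replicate 1 and 0.36 in replicate 2. The 48.2% counts differences of either sign, so it does not account for this wider spread. With 1 array per group in each replicate number the change in size between replicate numbers has no replicate and was not tested. The median over the other 63 plastid genes was 0.63 in replicate 1 and 0.01 in replicate 2, and 31 of them were higher and 12 lower in albino in both. Among all 69 measured plastid genes, ordered from the highest difference down, the 6 genes held ranks 13 (psbL), 22 (psbE), 28 (psbF), 29 (cemA), 32 (psbJ) and 34 (petA) in replicate 1. In replicate 2 they held ranks 14 (cemA), 24 (psbL), 26 (petA), 28 (psbJ), 30 (psbE) and 37 (psbF). They stood in the upper and middle part of the plastid genes, with others above them in both replicate numbers.

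**Figure D3:**
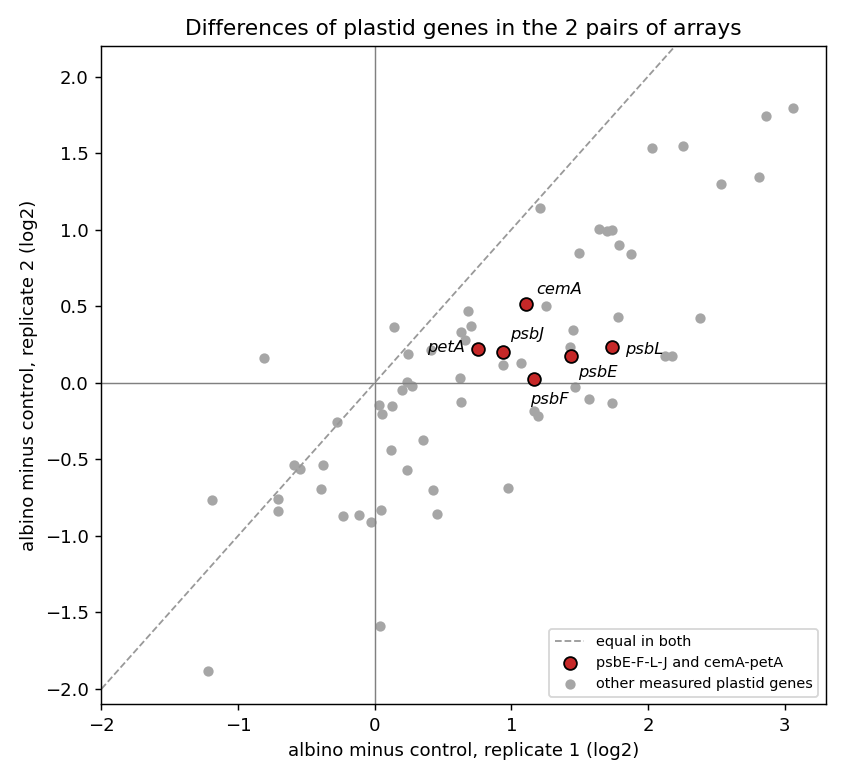
Albino minus control difference (log2) in replicate 1 (horizontal) and replicate 2 (vertical) of the 69 measured plastid genes, 1 point a gene, with the dashed line marking equal differences. The 6 labelled genes lie at 0.76 or more along the horizontal axis and between 0.03 and 0.51 in height, below the dashed line.

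The remaining plastid genes of the same complexes spread more widely. Of 11 other measured photosystem II genes, 8 were higher and 1 lower in albino in both replicate numbers, and of 5 other cytochrome b6f genes 3 were higher and 0 lower. None of these 16 passed the limma test, and 7 had an unadjusted p under 0.05, all higher in albino. Their median difference was 1.44 in replicate 1 and 0.40 in replicate 2, beside 1.13 and 0.21 for the 6 genes. The photosystem II gene with the highest difference was psbH, which codes for a small phosphoprotein, at 2.26 in replicate 1 and 1.55 in replicate 2. The lowest was psbA, which codes for the D1 reaction-centre protein, at -0.28 and -0.25. Among the cytochrome b6f genes the highest was petB, which codes for cytochrome b6, at 2.87 and 1.74, and the lowest petD, which codes for subunit IV, at 0.35 and -0.37. Cytochrome f and cytochrome b6 belong to 1 complex, and the petA difference was smaller than that of petB in both replicate numbers.

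The neighbours on either side had differences of the same sign in replicate 1. Upstream of cemA, on its strand, the values in replicates 1 and 2 were 0.71 and 0.37 for accD of fatty acid synthesis and 1.73 and 0.99 for psaI of photosystem I. They were 0.94 and 0.12 for ycf4, which codes for an assembly factor of photosystem I and lies next to cemA. Of this run of genes psaI thus had the highest differences, and cemA was above ycf4 and petA in both replicate numbers.

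Beyond psbE lies a cluster read in the other direction. Its first genes, petL and petG for small subunits of the cytochrome b6f complex, had differences of 1.78 and 0.43 and of 1.17 and -0.18 in replicates 1 and 2. The next, psaJ of photosystem I, had 2.53 and 1.30, above each of the 6 genes in both. The ribosomal protein genes rpl33 and rps18 had 1.87 and 0.84 and 2.13 and 0.17. Of these 8 neighbours 7 were higher in albino in both replicate numbers and petG was not, and none passed limma's test (adjusted p between 0.645 and 1).

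**Figure D4:**
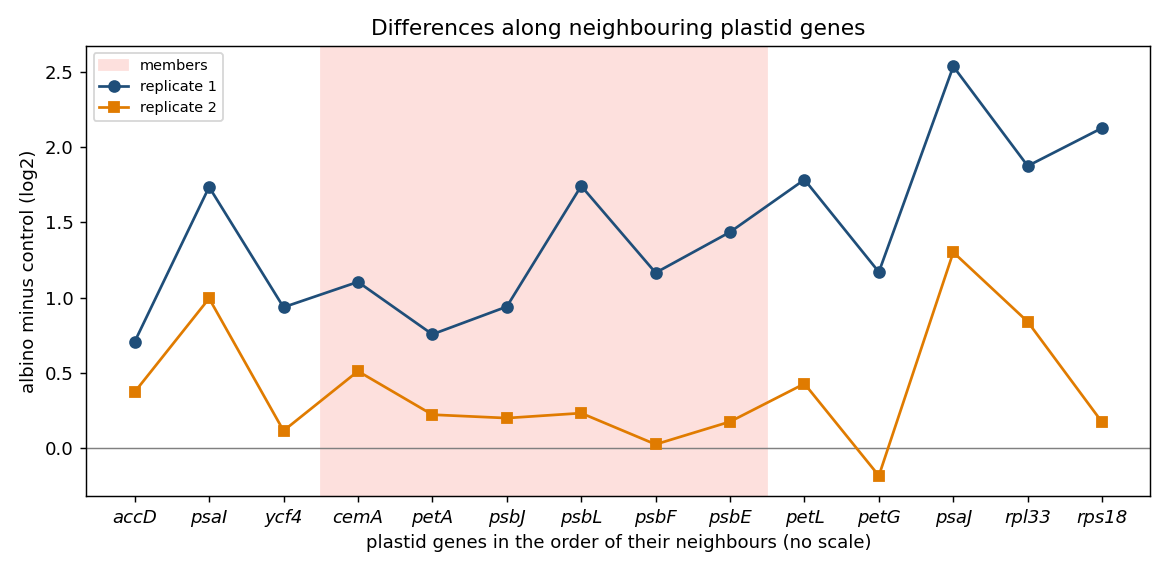
Albino minus control difference (log2) in replicate 1 (circles) and replicate 2 (squares) of 14 measured plastid protein genes in the order in which they neighbour each other, evenly spaced, with the 6 genes on the shaded ground. The replicate 2 values of the shaded genes stay between 0.03 and 0.51, lower than the peaks at psaI (0.99) and psaJ (1.30).

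The genes with the pattern most like each cluster were sought among 5936 single-gene probe sets brighter than the median probe set. Likeness was the Euclidean distance over the 4 arrays between mean-centred log2 values and the mean profile of the cluster. Nearest to the psbE cluster were the plastid genes petN, at a distance of 0.22, petG at 0.29 and ndhE at 0.33. Each was closer to that profile than any member, whose distances ran from 0.45 for psbJ to 1.07 for psbL. However, petN, petG and ndhE were picked as the nearest of 5936 probe sets, whereas the members were not picked by distance. Their smaller distances can follow from that choice alone, so no conclusion is drawn from this comparison with the members. Nearest to cemA and petA were AT1G67865 at 0.06, AT2G07751 at 0.20 and AT5G44060 at 0.22, picked in the same way. The profile is the mean of cemA and petA alone, so both lie equally far from it, at 0.41. With 4 arrays such distances only describe these arrays.

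Nuclear genes for the same complexes with a probe set of their own were few, and their differences were small. Of 8 listed nuclear cytochrome b6f subunits and electron partners 1 was measured, the small subunit gene PETM, at 0.10 in replicate 1 and 0.02 in replicate 2. Of 9 listed cytochrome b6f assembly factors 3 were measured, with mean differences between -0.05 and 0.03, and 0 had the same sign in both replicate numbers. These 3 were CCDA and CCS1, which serve heme attachment to cytochrome f, and CCB3, which serves heme attachment to cytochrome b6. Of 13 listed factors of photosystem II assembly and plastid RNA 3 were measured, and 1 was higher in albino in both replicate numbers. It was LPA66, a protein needed for RNA editing of the psbF transcript, at 0.35 and 0.28 (mean 0.31, SE 0.32). The lowest of the 3 was LPA2, an assembly factor of photosystem II, at -0.14 and 0.15. None of these 7 nuclear genes passed limma's test or had an unadjusted p under 0.05.

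Root and green shoot markers were set beside the 6 genes. The root beta-glucosidase gene PYK10 was at 8.89 and 10.19 in albino replicates 1 and 2, against 11.18 and 10.86 in control replicates 1 and 2. Its differences of -2.29 and -0.67 were, like those of the 6 genes, larger in replicate 1. The root hair expansin genes had -0.70 and 0.14 (EXPA7) and 0.18 and 0.27 (EXPA18), and of the 3 root markers 1 was lower and 1 higher in albino in both replicate numbers. Their summed unlogged value was 514 and 1207 in albino replicates 1 and 2, against 2364 and 1889 in control replicates 1 and 2. PYK10 alone made up 475 and 1171 of the albino sums, against 2315 and 1857 of the control sums, so the sum follows that 1 gene. Of 5 listed green shoot markers 1 was measured, the Rubisco activase gene RCA, at 0.26 and 0.16. RMA values have no true zero, so no marker could be called absent. The part of the organ make-up of the samples in the differences of the 6 genes was not tested.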

How the data were processed

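The authors deposited log2 probe-set values of 4 arrays, made with RMA per the submitters' processing notes. The RMA version and the priming of the cDNA were not given in the sources used here. Array medians were 5.85 and 5.84 in albino and control replicate 1, and 6.12 in both arrays of replicate 2. Percentiles from 1 to 99 differed by at most 0.09 within a replicate number and by up to 0.35 between them, so the arrays look normalized as pairs. Every difference is therefore also given within each replicate number.

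Of 22746 probe sets 13513 had 1 gene in the platform annotation, 503 several and 8730 none. Names and neighbours came from the TAIR10.1 assembly. No sequences are shown.

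All probe sets entered a two-sided limma test (version 3.58.1, run under R 4.3.3, default eBayes prior) of albino minus control with 2 residual degrees of freedom. P-values were adjusted by Benjamini-Hochberg over the whole table, and 0.05 was the threshold. The fit was tested on simulated data for its recovery of known shifts only. The simulated noise was scaled down from the real spread and held no gap between replicate numbers. That simulation therefore does not bear on the calls made here. The number of arrays limits the precision. P-values, SEs and 95% intervals come from the moderated fit, whose variances also draw on all probe sets. These SEs and intervals include the gap between replicate numbers. Members and lists were chosen with earlier results of these data known. The rule for named genes took all 6 members, every neighbour and root marker, the highest and lowest difference of each other list (CCB3 was added after its values were seen), and the 3 genes most like each cluster. Alternatives were quantile normalization, cyclic loess, filters on dim or cross-hybridizing probe sets, other variance priors, the replicate block and each array left out.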

Additional observations from a re-analysis of the deposited data

How the results depend on the processing

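The count of the 6 genes called was 0 under each of 12 alternatives. At an unadjusted p under 0.05 limma gave 1 of the 6, cemA, in the fit reported. The count was 2 with a trended and robust prior, 0 with no variance moderation and 1 under the other 6 alternatives that kept all arrays. With the replicate block 1631 of 22746 probe sets were higher in albino at that cut. For the other alternatives the count over all probe sets was not taken, so no conclusion is drawn from these counts. A fit with 1 array left out has a single array in 1 group, assumed to vary like the other group. For those fits no count at an unadjusted p is given. The median difference of the 6 was 0.68 with quantile normalization and 0.70 with cyclic loess. The filters and the replicate block could not change it, since all 6 genes were kept and the groups are balanced over replicate numbers. Leaving out 1 array in turn gave 0.09 to 1.17 for this median, 0.39 to 1.22 for psbE, 0.31 to 0.88 for psbF and 0.54 to 1.07 for cemA. It gave -0.30 to 2.28 for psbL, -0.20 to 1.34 for psbJ and -0.13 to 1.11 for petA. The 3 values below 0 came without albino replicate 1, which sets albino replicate 2 alone against both controls.

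The labels do not say that a replicate number marks a shared plate or day. Over all probe sets the deviations from the group means of same-numbered arrays correlated at 0.66. The apparent normalization as pairs can enter this value, so it does not show a shared plate or day. With the replicate number as a block (1 residual degree of freedom) 0 of the 6 genes and 0 of all probe sets were called. The differences with the replicate block are those of the fit reported, and their limma adjusted p lay between 0.252 and 0.473. They were 0.81 for psbE (SE 0.35 with the block), 0.60 for psbF (0.32) and 0.99 for psbL (0.41). For psbJ, cemA and petA they were 0.57 (0.24), 0.81 (0.21) and 0.49 (0.20). These SEs leave out the gap between replicate numbers. Dim signal was no limit for the 6 genes, which lay at or above the 86.7th percentile of all probe sets by mean value.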
